A study of Homo sapiens with 12 samples.

Results

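The axon guidance ligands and receptors examined here are 71 of the 59087 features of the count table. They were taken by gene symbol alone: semaphorins of classes 3 to 7, the plexins and neuropilins that bind them, ephrins, Eph receptors, Slits, Robos, netrins, netrin-Gs, UNC5 receptors and DCC. Poly(A) RNA came from SH-SY5Y, a human neuroblastoma cell line that retains traits of young sympathetic neurons. Wild-type cells were set against 3 lines, made independently, in which FMR1 was knocked out. Its product FMRP binds neuronal mRNAs and holds back their translation, and its loss underlies fragile X syndrome. Every culture grew for 2 weeks in DMEM:F-12 SILAC medium with dialyzed serum, so all groups share that diet. The 4 groups were wild type in heavy medium (isotope-labelled lysine and arginine), wild type in light medium (ordinary lysine and arginine), knockout in heavy medium and knockout in light medium. Each group held 3 libraries. In both knockout groups, libraries 1, 2 and 3 are lines 1, 2 and 3, so a line is known from 2 libraries. Nothing in the labels says that the wild-type libraries came from separately derived cells, so p-values may in part measure technical spread. Loss of FMR1 and the derivation of a line cannot be told apart in any comparison of knockout with wild type.

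Growing axons are steered by contact with, or secretion of, a small set of protein cues. Semaphorins act mainly through plexins, and secreted class 3 semaphorins usually need a neuropilin as the binding partner. Ephrins are tethered to the membrane and bind Eph receptor tyrosine kinases on a neighbouring cell, with signals running into both cells. Slits repel axons through Robo receptors. Netrins attract through DCC and repel through UNC5 receptors. The same families guide migrating neural crest cells, from which the sympathetic lineage of neuroblastoma arises.

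The libraries held between 25935152 and 40257027 counts. FMR1 mRNA, at 37.7 ± 2.17 CPM (counts per 1e6 of the scaled library, SD, n = 6) in wild type, was below the wild-type range in each knockout library. The heavy and light libraries read 22.4 and 11.4 CPM in line 1, 12.8 and 11.5 CPM in line 2, and 7.19 and 9.05 CPM in line 3. Over both media the log2 fold change of FMR1 was -1.62 (SE 0.217, edgeR adjusted p = 0.00131). The heavy library of line 1 stood apart from the light library of that line, with smaller differences from wild type for FMR1 and for most of the guidance genes. The total counts of called guidance genes over both media and in line 1 are given with and without it. Counts by family, by direction and for other lists include it. Line 1 fold changes of single genes rest on both libraries unless a dropped library is named. Markers of noradrenergic neuroblastoma were high, with DBH at 2250 ± 162 CPM (SD, n = 6) in wild type, whereas TH stood at 0.616 ± 0.145 CPM (SD, n = 6) and INSM1 was near 0. Markers of endothelium and of blood were at or near 0 in every library.

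Most of the guidance families were expressed in wild-type SH-SY5Y cells. Of the 71 genes, 59 had enough counts to be tested. Those were 18 of 20 semaphorins, 11 of 11 plexins and neuropilins, 8 of 8 ephrins, 7 of 14 Eph receptors, 6 of 7 Slits and Robos and 9 of 11 netrins and netrin receptors. The wild-type mean reached 1 CPM for 55 genes and 10 CPM for 37. The 12 genes left out never exceeded 0.226 CPM in any library. EPHA1, EPHA3, EPHA4, EPHA5 and ROBO4 had no count in any of the 12 libraries. At the depth of these libraries 3 counts, the most that a count of 0 allows, equal between 0.0741 and 0.116 CPM. SEMA3D, SEMA3E, EPHA7, EPHB1, EPHB6, NTN1 and NTN5 were the other genes left out. NTN1, which encodes netrin-1, the founding ligand of its family, reached 0.0872 CPM at most.

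Levels were compared between genes per kilobase of exon, on the scale of wild-type CPM per kb. Among the netrin receptors of the list UNC5B, a repulsive receptor, was highest at 47.2 CPM per kb, followed by UNC5A at 18.2 and UNC5C at 17.9, whose ranges overlapped. UNC5D stood at 1.48 and DCC, the attractive receptor, was lowest at 0.0488 CPM per kb. NEO1, which encodes neogenin, a relative of DCC that also binds netrins and is outside the list, stood at 13.6 CPM per kb. PLXNB2 led the plexins at 29.3 CPM per kb, and PLXNA1 followed at 12.7. NRP2 stood at 0.715 CPM per kb and NRP1 at 0.0684, so that both co-receptors of class 3 semaphorins lay near the bottom of their group. SEMA4C, a membrane-bound semaphorin, and SEMA3C, a secreted one, headed the semaphorins at 10.4 and 10.0 CPM per kb, with overlapping ranges. EFNB3 and EFNA2 headed the ephrins at 27.4 and 24.7 CPM per kb, again with overlap. Among Eph receptors the order EPHB2, EPHB4 and EPHA2, at 8.88, 6.94 and 4.40 CPM per kb, had no overlap between neighbours. SLIT3 was the leading gene of its family at 17.3 CPM per kb, above SLIT1 at 6.22 and ROBO1 at 4.80.

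**Figure D1:**
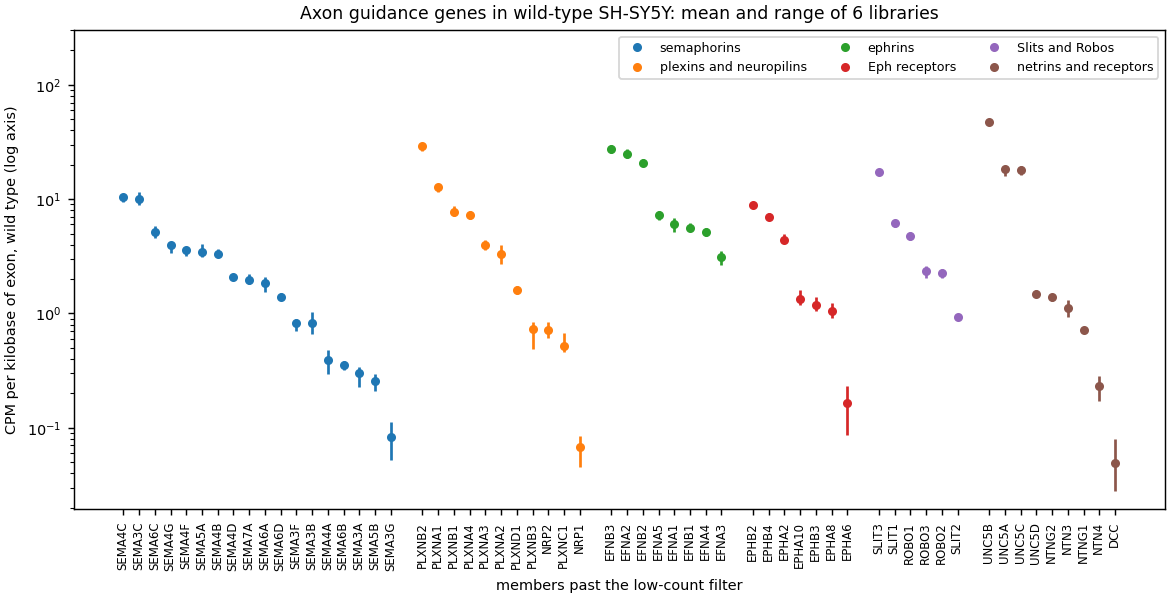
Wild-type level of the 59 tested genes as CPM per kilobase of exon (log axis), ordered within each family; points are means and vertical lines the range of 6 libraries. UNC5B sits highest at 47.2 CPM per kb, and DCC is the lowest of the netrin receptors at 0.0488.

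Knockout cells differed from wild type in members of all 6 families, and in both directions. Over both media 28 of 59 tested genes passed (edgeR quasi-likelihood test, adjusted p under 0.05), against 24.8% of all 16704 genes tested. Of these, 12 were higher in knockout (15.0% of all genes) and 16 were lower (9.78% of all genes). The higher genes were SEMA3F, SEMA4D, SEMA4G, PLXNA2, PLXNB3, PLXNC1, PLXND1, EFNB3, EPHA8, EPHA10, SLIT3 and UNC5A. The lower ones were SEMA3A, SEMA3C, SEMA4C, SEMA5A, SEMA7A, PLXNA1, PLXNA4, NRP2, EFNA2, EFNA4, EFNA5, EFNB1, SLIT1, SLIT2, NTNG1 and UNC5D. The 7 Eph receptors that could be tested gave 2 calls, EPHA8 and EPHA10, both higher (28.6%, near the share of all genes). The median log2 fold change of the 59 genes was -0.137, beside 0.003 for all genes tested. The fit counts 6 knockout libraries that stand for 3 lines. With counts summed per line, 3 against 3, EFNA5 (adjusted p = 0.0403), UNC5D (0.0349) and SLIT3 (0.0341) passed, and 1.53% of all genes did. Without the heavy library of line 1 the count was 26 (22.6% of all genes). Leaving out both libraries of line 1, 2 or 3 gave 18, 14 and 47 guidance genes, beside 13.9%, 10.2% and 43.6% of all genes tested.

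**Figure D2:**
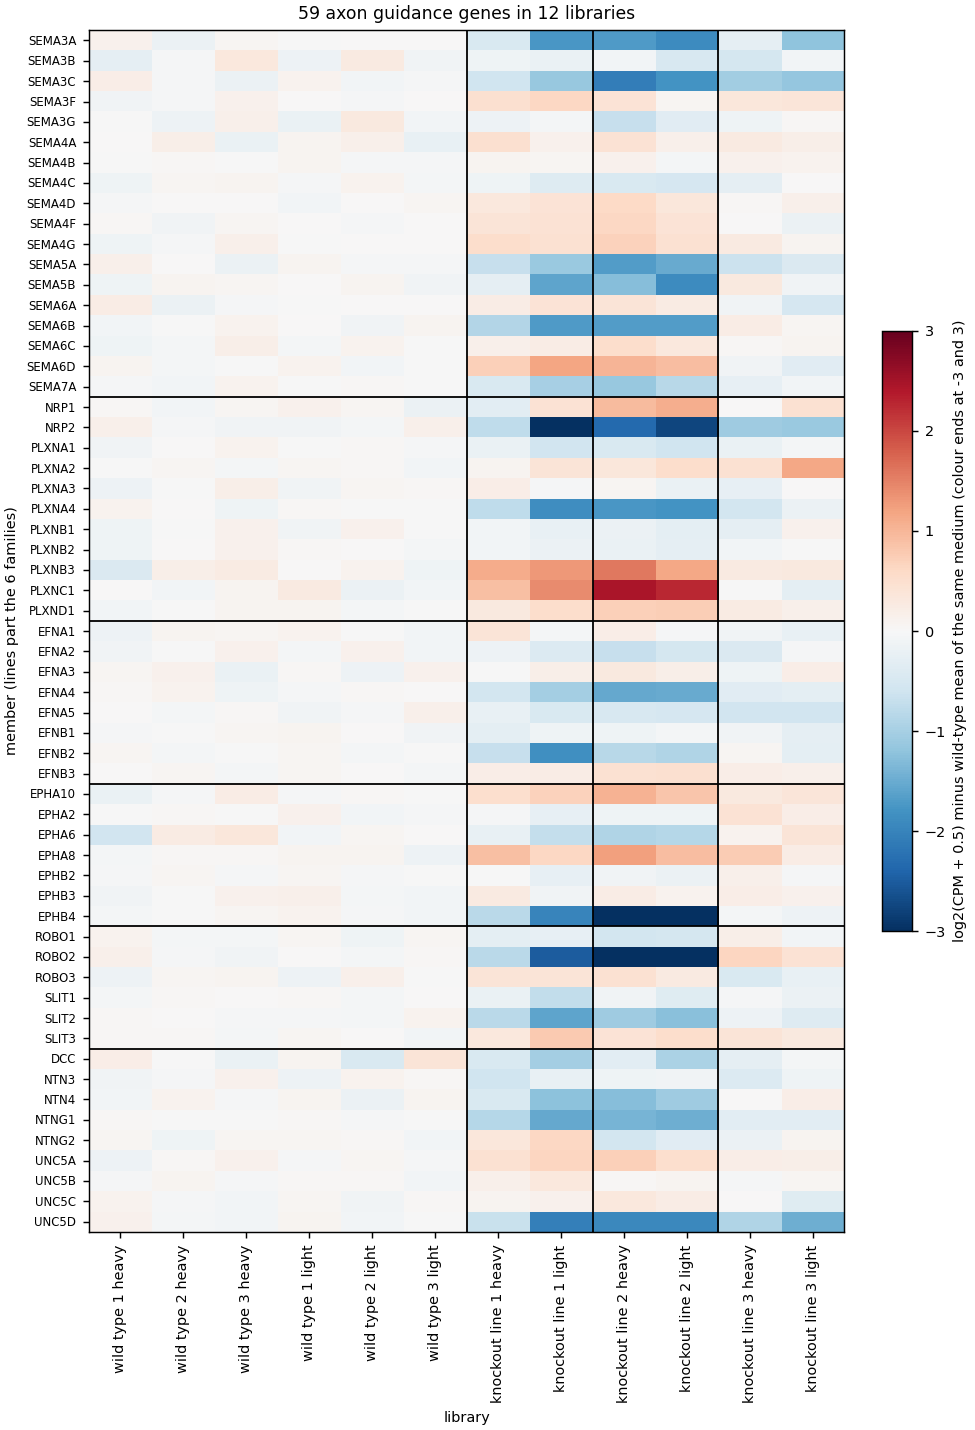
Each tested gene (vertical axis, by family) in each of the 12 libraries (horizontal axis); colour is log2 of CPM + 0.5 minus the wild-type mean of the same medium. Lines 1 and 2 carry most of the strong colour, the heavy library of line 1 is paler than its light library, and line 3 is close to wild type for most genes.

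Every knockout library lay outside the wild-type range for 21 of the 59 genes, 9 above and 12 below. Over all genes tested the shares were 10.5%, 6.54% and 4%. By line, both libraries lay above the range for 16 genes and below it for 25 in line 1, where all genes gave 37.1% in all, 19.6% above and 17.4% below. In line 2 the counts were 20 and 29 (49.2%, 26.5% and 22.8%), and in line 3 they were 12 and 15 (21.6%, 12.0% and 9.64%). EPHB4 is among the 12 only by a narrow margin in line 3, at 42.4 and 40.6 CPM against a wild-type minimum of 42.5 CPM.

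The genes called in each of the 3 lines, in 1 direction, were SEMA3C, SEMA5A, EFNA5 and UNC5D, all lower, and EPHA8 and SLIT3, both higher. Among all genes tested, 0.802% were lower and 2.35% were higher in each line. SEMA3C encodes a secreted semaphorin. It ranged from 55.9 to 72.1 CPM in wild type, with a median of 61.4. Its knockout levels, heavy then light, were 41.4 and 28.2 CPM in line 1, 14.6 and 17.6 CPM in line 2, and 30.2 and 28.0 CPM in line 3. All 6 knockout values lay below the wild-type range, and line 2 was lowest. Fitted, the log2 change was -1.24 over both media (SE 0.220, edgeR adjusted p = 0.00471), and it differed among lines (adjusted p = 0.000965).

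SEMA5A encodes a transmembrane semaphorin with thrombospondin repeats that can attract or repel axons. Its wild-type level was between 38.0 and 49.3 CPM (median 39.9). In knockout it was 27.2 and 17.9 CPM in line 1 (heavy, then light), 13.4 and 13.4 CPM in line 2, and 27.9 and 28.9 CPM in line 3. The groups did not overlap, and line 2 was again lowest. The fit gave -0.96 in log2 units (SE 0.207; adjusted p = 0.00982 with edgeR).

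EFNA5 encodes ephrin-A5, a lipid-anchored ligand of EphA receptors known from the map of retinal axons. Wild-type libraries held between 37.5 and 44.8 CPM (median 42.0). Knockout values, heavy then light, were 36.6 and 29.5 CPM for line 1, 30.1 and 28.4 CPM for line 2, and 28.3 and 27.2 CPM for line 3. The change was modest but even: 5 of 6 knockout libraries fell between 27.2 and 30.1 CPM, and the heavy library of line 1 came closest to wild type. Its log2 fold change was -0.47 (SE 0.067, edgeR adjusted p = 0.000787); the difference among lines gave an adjusted p of 0.137. Line 1 passed only with its light library included (adjusted p = 0.199 otherwise).

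UNC5D encodes a netrin receptor that also binds FLRT proteins. It ranged from 15.0 to 17.3 CPM in wild type (median 15.6). Among knockout libraries (heavy, then light) line 1 read 9.82 and 3.48 CPM, line 2 3.81 and 3.82 CPM, and line 3 8.19 and 5.54 CPM. No knockout library reached the wild-type range. The fitted change was -1.50 in log2 units (SE 0.228; adjusted p = 0.00191 with edgeR).

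EPHA8, an EphA receptor first described in the developing midbrain, went the other way. It ranged from 4.90 to 6.67 CPM in wild type (median 5.41). It was at 10.0 and 9.98 CPM in line 1, at 12.7 and 12.4 CPM in line 2, and at 8.96 and 7.45 CPM in line 3 (heavy, then light). All knockout libraries were above wild type, with the light library of line 3 nearest to it. Its fitted log2 change was 0.85 (SE 0.132, edgeR adjusted p = 0.00131).

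SLIT3, a secreted Slit, ranged from 233 to 261 CPM in wild type. Knockout values were 302 and 429 CPM in line 1, 328 and 362 CPM in line 2, and 318 and 308 CPM in line 3 (heavy, then light). The groups did not overlap, and the light library of line 1 was highest. The rise was 0.46 in log2 units (SE 0.069; adjusted p = 0.00106 with edgeR).

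In line 3, 4 of these 6 calls depended on single libraries. When the heavy library of line 3 was dropped, the log2 fold change of EPHA8 went from 0.52 to 0.31 (edgeR adjusted p = 0.509), that of SLIT3 from 0.34 to 0.24 (0.464) and that of SEMA5A from -0.55 to -0.41 (0.233). UNC5D kept a fold change as large, -1.41 without the heavy and -1.10 without the light library against -1.24 with both, at adjusted p of 0.223 and 0.203. Leaving out a single wild-type library raised the adjusted p of UNC5D to at most 0.0684 and that of SLIT3 to at most 0.0635. For SEMA3C and EFNA5 the line 3 adjusted p reached at most 0.0191 and 0.00923 when any single library was left out.

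The sequence just upstream is shown for SEMA3C, SEMA5A, EFNA5, SLIT3 and EPHA8 because they passed in every line, with EPHB4 beside them as a gene that passed in lines 1 and 2 but not in line 3. Each is the 250 bases before the RefSeq start on GRCh38.p14, written 5′ to 3′ on the strand of the gene. Capitals mark a GC box (GGGCGG, both strands, bound by Sp-family factors) or the core GATA (both strands); neighbouring matches of the 2 motifs can share a base. For SEMA3C, which has 2 RefSeq starts, the outermost was used. UNC5D, the other gene that passed in every line, is not shown.
SEMA3C, chr7:80922390-80922639, minus strand: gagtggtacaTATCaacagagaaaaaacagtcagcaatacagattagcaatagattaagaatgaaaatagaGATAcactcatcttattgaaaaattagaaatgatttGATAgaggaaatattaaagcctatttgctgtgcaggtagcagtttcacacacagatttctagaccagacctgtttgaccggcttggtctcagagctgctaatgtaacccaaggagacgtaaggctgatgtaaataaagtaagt
SEMA5A, chr5:9546076-9546325, minus strand: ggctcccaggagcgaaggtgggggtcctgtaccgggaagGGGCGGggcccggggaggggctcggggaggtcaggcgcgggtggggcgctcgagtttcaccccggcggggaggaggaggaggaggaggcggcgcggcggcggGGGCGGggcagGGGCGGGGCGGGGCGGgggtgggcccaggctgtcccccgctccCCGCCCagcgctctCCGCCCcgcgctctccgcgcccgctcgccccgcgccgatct
EFNA5, chr5:107670938-107671187, minus strand: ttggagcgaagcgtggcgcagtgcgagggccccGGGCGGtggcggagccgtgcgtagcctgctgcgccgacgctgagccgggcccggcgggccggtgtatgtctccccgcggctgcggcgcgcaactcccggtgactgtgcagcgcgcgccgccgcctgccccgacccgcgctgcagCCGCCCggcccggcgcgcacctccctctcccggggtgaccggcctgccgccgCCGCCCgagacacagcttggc
SLIT3, chr5:169301140-169301389, minus strand: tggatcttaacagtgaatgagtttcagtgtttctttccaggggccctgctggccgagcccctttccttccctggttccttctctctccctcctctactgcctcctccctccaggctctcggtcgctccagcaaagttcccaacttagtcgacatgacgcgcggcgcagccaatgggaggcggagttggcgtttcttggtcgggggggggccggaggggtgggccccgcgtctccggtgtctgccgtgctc
EPHA8, chr1:22563239-22563488, plus strand: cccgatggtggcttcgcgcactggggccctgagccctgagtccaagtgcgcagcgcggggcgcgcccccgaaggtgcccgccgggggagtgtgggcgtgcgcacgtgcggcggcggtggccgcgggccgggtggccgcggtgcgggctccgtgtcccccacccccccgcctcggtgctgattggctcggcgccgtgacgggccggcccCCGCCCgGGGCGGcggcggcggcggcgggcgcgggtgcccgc
EPHB4, chr7:100827524-100827773, minus strand: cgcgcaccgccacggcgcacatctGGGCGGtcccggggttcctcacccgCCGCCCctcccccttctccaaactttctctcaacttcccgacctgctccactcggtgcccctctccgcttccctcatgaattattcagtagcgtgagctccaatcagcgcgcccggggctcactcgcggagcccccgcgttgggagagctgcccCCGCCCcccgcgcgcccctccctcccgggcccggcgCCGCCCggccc
The stretches differed in composition. SEMA3C was 36.4% G or C with 3 GATA matches and no GC box, while SEMA5A was 82.0% G or C with 7 GC boxes. EFNA5 had 3 GC boxes, EPHA8 had 2, EPHB4 had 4 and SLIT3 had no match to either motif. RefSeq entries were found for 60 of the 71 genes, with 94 starts. A GC box was present at 70.2% of those starts and at 42.6% of all 35114 starts. GATA was present at 35.1% and 45.6%. The median content of G or C was 65.0% at the starts of the guidance genes and 58.0% at all starts. These are letter matches in 1 window per start, and starts of 1 gene can share sequence.

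In the annotation, GENCODE release 29 on GRCh38, the genes whose upstream sequence is shown are on the minus strand, except EPHA8. SEMA3C (ENSG00000075223.13) spans chromosome 7 from 80742538 to 80922359 and SEMA5A (ENSG00000112902.11) chromosome 5 from 9035026 to 9546075. EFNA5 (ENSG00000184349.12) spans chromosome 5 from 107376889 to 107670895 and SLIT3 (ENSG00000184347.14) chromosome 5 from 168661733 to 169301129. EPHA8 (ENSG00000070886.11) spans chromosome 1 from 22563564 to 22603594 and EPHB4 (ENSG00000196411.9) chromosome 7 from 100802565 to 100827521. EPHB4 overlaps SLC12A9, UNC5A overlaps HK3 and SEMA4G overlaps MRPL43 on the opposite strand, as PLXNC1 does CEP83, and SLIT1 shares its strand with the read-through gene ARHGAP19-SLIT1, PLXNB3 overlaps SRPK3 and EFNA4 overlaps AL691442.1 on the same strand. Whether counting used strand is unknown here, and such pairs may share reads.

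**Figure D3:**
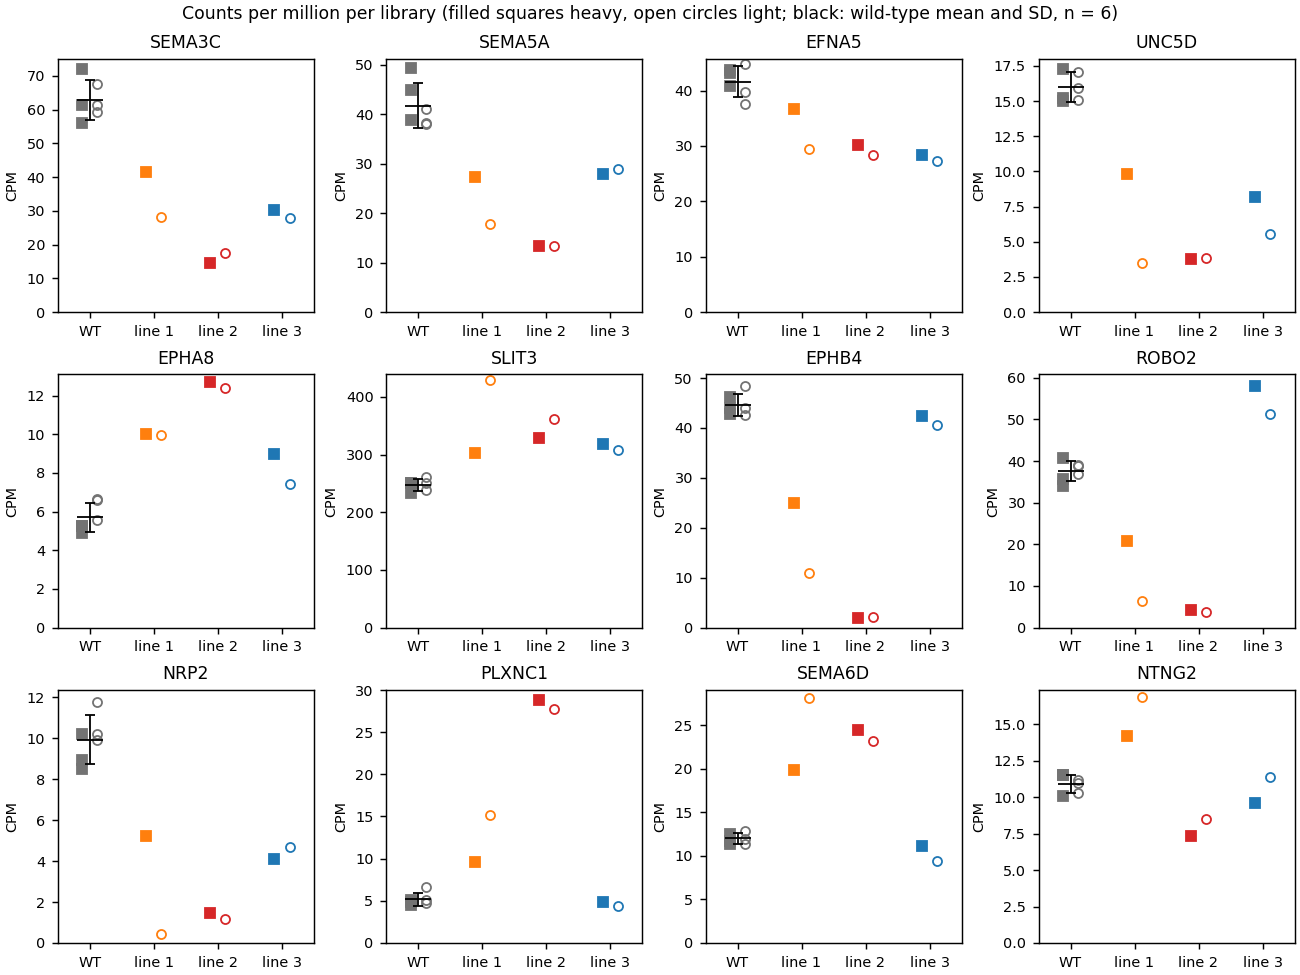
CPM (vertical axis, from 0) of 12 guidance genes in each library, by wild type and knockout line; filled squares are heavy and open circles light medium, with the wild-type mean and SD (n = 6) in black. SEMA3C, SEMA5A, EFNA5 and UNC5D are below and EPHA8 and SLIT3 above wild type in all lines, whereas EPHB4, PLXNC1 and SEMA6D leave the wild-type level in lines 1 and 2.

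The semaphorins gave 8 calls among 18 tested genes over both media (44.4%, beside 24.8% of all genes), 3 higher and 5 lower. Besides SEMA3C and SEMA5A, SEMA3A, the classic growth-cone collapsing factor, was low and fell further. It ranged from 2.13 to 3.19 CPM in wild type (median 2.95). It was at 1.66 and 0.594 CPM in line 1, 0.423 and 0.502 CPM in line 2 and 1.97 and 1.09 CPM in line 3 (heavy, then light). The ranges did not overlap, although the heavy libraries of lines 1 and 3 came close. Its log2 fold change was -1.47 (SE 0.335, edgeR adjusted p = 0.0101), and the call in line 1 was lost without the light library (adjusted p = 0.164).

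SEMA4C, the semaphorin with the most mRNA per kilobase and a ligand of PLXNB2, was slightly lower. It ranged from 58.6 to 68.2 CPM in wild type (median 64.0) and from 44.3 to 63.7 CPM in knockout, with overlap in lines 1 and 3. Its log2 fold change was -0.28 (SE 0.0844, edgeR adjusted p = 0.0287). The SEMA4C call was lost without either library of line 2, the light library of line 1, wild-type heavy library 2 or 3 or wild-type light library 2 (adjusted p between 0.0577 and 0.0692), and without line 1 (0.0592) or line 2 (0.127). SEMA4G rose from a range of 17.7 to 22.3 CPM in wild type to between 23.4 and 31.6 CPM in knockout, without overlap. Its log2 fold change was 0.43 (SE 0.0881, edgeR adjusted p = 0.00529), with the line 3 libraries nearest to wild type.

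SEMA6D and SEMA6B, transmembrane class 6 semaphorins, moved in opposite directions to each other in lines 1 and 2: SEMA6D rose and SEMA6B fell. Over both media neither passed with edgeR. DESeq2 called SEMA6D (log2 fold change 0.68, adjusted p = 0.0402), and edgeR did so without the heavy or the light library of line 3 (adjusted p = 0.0253 and 0.00463). SEMA6D was between 11.4 and 12.9 CPM in wild type (median 11.8). It was at 19.9 and 28.1 CPM in line 1, at 24.4 and 23.2 CPM in line 2 and at 11.1 and 9.35 CPM in line 3 (heavy, then light). Lines 1 and 2 were thus above and line 3 below the wild-type range, with log2 fold changes of 1.00, 1.00 and -0.23, the last with an edgeR adjusted p of 0.298. SEMA6B was at 1.42 to 1.71 CPM in wild type, at 0.610 and 0.141 CPM in line 1, at 0.141 and 0.154 CPM in line 2 and at 1.87 and 1.68 CPM in line 3. Its log2 fold changes were -2.07 in line 1 and -3.40 in line 2 (edgeR adjusted p = 9.27e-05 and 2.46e-06). Line 2 values of SEMA6B are close to the level of 3 counts.

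Plexins and neuropilins gave 7 calls among 11 tested genes (63.6%, beside 24.8% of all genes), 4 higher and 3 lower. PLXNC1, the plexin that binds SEMA7A, showed the largest rise of the family, and only in lines 1 and 2 did it pass. It ranged from 4.54 to 6.63 CPM in wild type (median 4.99). The heavy and light libraries read 9.59 and 15.2 CPM in line 1, 28.8 and 27.8 CPM in line 2, and 4.85 and 4.37 CPM in line 3. Line 3 thus overlapped wild type while line 2 stood at 5.47 times its mean. The line 2 log2 fold change was 2.46 (SE 0.127, edgeR adjusted p = 1.14e-10). Over both media PLXNC1 had a log2 fold change of 1.54 and an adjusted p of 0.0471. On leaving out any 1 wild-type, line 1 or line 2 library the adjusted p was between 0.0548 and 0.122, and without either library of line 3 it was 0.022 or 0.0131.

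PLXNB3, a receptor for SEMA5A, ranged from 3.42 to 5.84 CPM in wild type (median 5.43). It was at 11 and 13.6 CPM in line 1, at 15.4 and 12.3 CPM in line 2 and at 5.85 and 6.5 CPM in line 3 (heavy, then light). Line 3 lay just above the wild-type range and lines 1 and 2 far above it. The log2 fold change was 1.08 over both media (SE 0.245, edgeR adjusted p = 0.0108). Without line 1 the adjusted p was 0.0504 and without line 2 it was 0.0549.

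PLXNA2 was the plexin in which line 3 stood highest. Wild-type values were 52.1, 54.6 and 50.6 CPM in heavy and 41.2, 40.4 and 37.3 CPM in light medium. Knockout lines read 55.6 and 51.7 CPM (line 1), 66.5 and 57.1 CPM (line 2) and 72.3 and 88.7 CPM (line 3), heavy then light. The light library of line 1 fell among the heavy wild-type values but above every light one. On the log2 scale the change was 0.23 in line 1, 0.43 in line 2 and 0.83 in line 3 (edgeR adjusted p = 0.145, 0.00594 and 0.000359). The line 2 call of PLXNA2 was lost without its heavy or its light library (adjusted p = 0.0745 and 0.0558). The call over both media (log2 fold change 0.52, adjusted p = 0.0175) was lost without line 2 (0.0669). PLXND1 rose by 0.47 on the log2 scale (SE 0.102, adjusted p = 0.00653), from 14.4 to 16.9 CPM in wild type to between 17.9 and 27.0 CPM in knockout.

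PLXNB2, the plexin with the most mRNA, stayed between 180 and 214 CPM in knockout against 190 to 225 CPM in wild type. It passed in line 2 alone, at a log2 fold change of -0.24 (edgeR adjusted p = 0.00342, and 0.057 without the light library of line 2). PLXNA1 fell by 0.34 in log2 units over both media (SE 0.0869, adjusted p = 0.0152), from 127 to 147 CPM in wild type to between 92.5 and 134 CPM; without line 2 the adjusted p was 0.0635.

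NRP2, a co-receptor of class 3 semaphorins, had the lowest share of its wild-type level of any called plexin or neuropilin. It ranged from 8.48 to 11.8 CPM in wild type (median 10.1). Knockout values, heavy then light, were 5.23 and 0.424 CPM for line 1, 1.44 and 1.16 CPM for line 2, and 4.11 and 4.69 CPM for line 3. All knockout libraries were below wild type, but the libraries of line 1 differed widely. The log2 fold change over both media was -1.83 (SE 0.490, edgeR adjusted p = 0.0242). Of the lines, line 2 passed (log2 fold change -2.94, adjusted p = 0.0113), while lines 1 and 3 had adjusted p of 0.0559 and 0.321. Without the heavy or the light library of line 2 its fold change was -3.01 or -2.90, with an adjusted p of 0.102 or 0.0738, and with the replicate block it was 0.066. Without either library of line 2 the adjusted p over both media was 0.0513 or 0.0555.

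The ephrins gave 5 calls among 8 (62.5%, beside 24.8% of all genes), with 4 lower and EFNB3 higher. EFNB3, a transmembrane ephrin that acts as a midline barrier for corticospinal axons, ranged from 82.2 to 95.3 CPM in wild type. It was at 98.2 and 107 CPM in line 1, at 117 and 127 CPM in line 2 and at 97.4 and 101 CPM in line 3 (heavy, then light). All knockout libraries were above wild type, by a small margin in line 3 and in the heavy library of line 1. Fitted, the log2 change was 0.29 (SE 0.0616, edgeR adjusted p = 0.00638).

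EFNA4 and EFNA2, 2 further lipid-anchored ephrins, were lower. EFNA4 ranged from 6.04 to 7.12 CPM in wild type, and was at 4.39 and 2.86 CPM in line 1, 1.95 and 1.89 CPM in line 2 and 5.15 and 5.09 CPM in line 3. No library overlapped, and the order of the lines was the same in both media. Its log2 fold change was -0.86 (SE 0.239, edgeR adjusted p = 0.022). The EFNA4 call was lost without the light library of line 1 (0.0528), without line 1 (0.0688) and without a filter on low counts (0.0583). EFNA2 ranged from 21.9 to 26.0 CPM in wild type and from 14.4 to 22.4 CPM in knockout, where the light library of line 3 overlapped; its log2 fold change was -0.37 (SE 0.103, edgeR adjusted p = 0.0201). The EFNA2 call was lost without the light library of line 2 (0.0509), wild-type light library 2 (0.0529) or line 2 (0.0855). EFNB1 fell by 0.17 on the log2 scale and was at the edge of the threshold (adjusted p = 0.0497).

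Among Eph receptors EPHA8 and EPHA10 rose over both media, and EPHB4 fell in lines 1 and 2. EPHA10, a member without kinase activity, ranged from 9.64 to 13.1 CPM in wild type (median 10.8). It was at 16.0 and 17.9 CPM in line 1, 23.5 and 19.6 CPM in line 2 and 13.7 and 14.2 CPM in line 3 (heavy, then light). All knockout libraries exceeded the wild-type range, narrowly in line 3. The log2 fold change was 0.67 (SE 0.126, edgeR adjusted p = 0.00385).

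EPHB4, best known as the venous partner of ephrin-B2, ranged from 42.5 to 48.4 CPM in wild type (median 44.0). Among knockout libraries (heavy, then light) line 1 read 25 and 10.9 CPM, line 2 1.97 and 2.16 CPM, and line 3 42.4 and 40.6 CPM. Line 2 thus held about a 21.6-fold lower level than wild type, line 1 an intermediate one, and line 3 nearly the wild-type one. The log2 fold changes were -1.34 (SE 0.231), -4.45 (SE 0.326) and -0.11 (SE 0.208), with edgeR adjusted p of 0.00273, 6.95e-06 and 0.844. Over both media EPHB4 did not pass (log2 fold change -1.13, adjusted p = 0.251), and without line 3 it did (-2.17, adjusted p = 0.0313).

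EPHA2 was the single gene called in line 3 alone. It ranged from 17.2 to 20.8 CPM in wild type, with 23.7 and 21.9 CPM in line 3 and between 15.9 and 17.3 CPM in lines 1 and 2. The line 3 log2 fold change was 0.32 (SE 0.0821, edgeR adjusted p = 0.0273), but 0.509 once the heavy library was dropped. EPHB2, the Eph receptor with the most mRNA, did not pass in any line and stayed between 96.2 and 119 CPM in knockout, against 105 to 119 CPM in wild type.

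In the Slit and Robo family all 6 tested genes passed in line 1 (28.2% of all genes) and in line 2 (43.0%), and SLIT3 was the one called in line 3. ROBO3 and SLIT1 did not pass in line 1 without its light library (adjusted p = 0.0801 and 0.116). In line 2 ROBO3 was lost without the heavy library (0.228), and SLIT1 was lost without either line 2 library or any wild-type light library (between 0.0561 and 0.297). SLIT2, the best-studied Slit, ranged from 8.5 to 9.64 CPM in wild type. It was at 4.88 and 2.66 CPM in line 1, at 4 and 3.43 CPM in line 2 and at 7.99 and 6.76 CPM in line 3 (heavy, then light). All knockout libraries were below wild type, line 3 least so. The fit put the log2 change at -0.86 over both media (SE 0.218, edgeR adjusted p = 0.0155), and without line 2 the adjusted p was 0.0795. SLIT1 fell by 0.27 on the log2 scale (SE 0.0845, adjusted p = 0.0352), from 52.4 to 60.2 CPM in wild type to between 35.0 and 53.0 CPM. It did not pass without line 1 (adjusted p = 0.0664), without line 2 (0.0842), or without the light library of line 2 or any wild-type light library.

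ROBO2, a Slit receptor, differed widely among lines. Wild-type libraries held 34.1 to 40.8 CPM (median 37.9). The heavy and light libraries read 20.7 and 6.42 CPM in line 1, 4.20 and 3.78 CPM in line 2, and 58.1 and 51.4 CPM in line 3. Lines 1 and 2 were below and line 3 above the wild-type range. The log2 fold changes were -1.52, -3.25 and 0.54 (edgeR adjusted p = 0.0126, 0.000426 and 0.369), and the difference among lines passed (adjusted p = 0.00134). ROBO3, a divergent Robo of commissural axons, took the opposite order: 14.3 to 18.3 CPM in wild type, 19.3 to 23.7 CPM in lines 1 and 2 and 12.2 and 13.6 CPM in line 3. Its difference among lines had an adjusted p of 0.000267.

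Netrins and their receptors gave 3 calls among 9 over both media (33.3%, beside 24.8% of all genes), UNC5A higher and UNC5D and NTNG1 lower. UNC5A ranged from 69.4 to 85.5 CPM in wild type (median 79.5). It was at 106 and 127 CPM in line 1, 127 and 116 CPM in line 2 and 88.6 and 92.5 CPM in line 3 (heavy, then light). No library overlapped, and line 3 stood closest to wild type. On the log2 scale the change was 0.46 (SE 0.0910, edgeR adjusted p = 0.00483).

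NTNG1, a lipid-anchored netrin-G that acts at synapses rather than through DCC, ranged from 6.18 to 6.86 CPM in wild type. It was at 3.46 and 1.87 CPM in line 1, 2.23 and 1.97 CPM in line 2 and 5.25 and 5.03 CPM in line 3. The groups did not overlap. The log2 fold change was -0.98 (SE 0.246, edgeR adjusted p = 0.0152); without line 1 or without line 2 the adjusted p was 0.0568 or 0.0514.

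NTNG2, its paralog, was the single gene called in opposite directions. It ranged from 10.1 to 11.5 CPM in wild type, with 14.2 and 16.9 CPM in line 1, 7.33 and 8.49 CPM in line 2 and 9.63 and 11.4 CPM in line 3. Its fitted log2 change was 0.50 in line 1 and -0.47 in line 2 (edgeR adjusted p = 0.000578 and 0.00129). The call in line 1 was lost without the light library (adjusted p = 0.0503) and that in line 2 without the heavy library (0.0554). UNC5B, the netrin receptor with the most mRNA, passed in line 1 alone, with 365 and 397 CPM against 302 to 345 CPM in wild type (log2 fold change 0.24, adjusted p = 0.00208, and 0.132 without the light library).

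By line, the number of calls differed, and line 3 had the fewest. In line 1, 39 of the 59 genes passed (28.2% of all genes tested), 17 higher and 22 lower (15.4% and 12.8%). In line 2, 45 passed (43.0%), 18 higher and 27 lower (22.9% and 20.1%). In line 3, 8 passed (5%), 4 higher and 4 lower (3.27% and 1.73%). Called changes of at least 2-fold numbered 15 in line 1, 22 in line 2 and 2 in line 3, beside 6.08%, 9.90% and 1.36% of all genes. The pattern of lines 1 and 2 without line 3 held for 30 guidance genes (21.9% of all genes), line 2 alone for 8 (17.0%) and line 1 alone for 3 (2.73%), and 10 passed in no line (53.4%). Without its light library line 1 had 21 calls (9.13% of all genes), and without its heavy library 41 (27.5%). The joint test of a difference among lines was passed by 37 genes (23.2% of all genes tested). A contrast of line 3 with the mean of lines 1 and 2, chosen after the values were seen, was passed by 35 genes (25.9%).

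**Figure D4:**
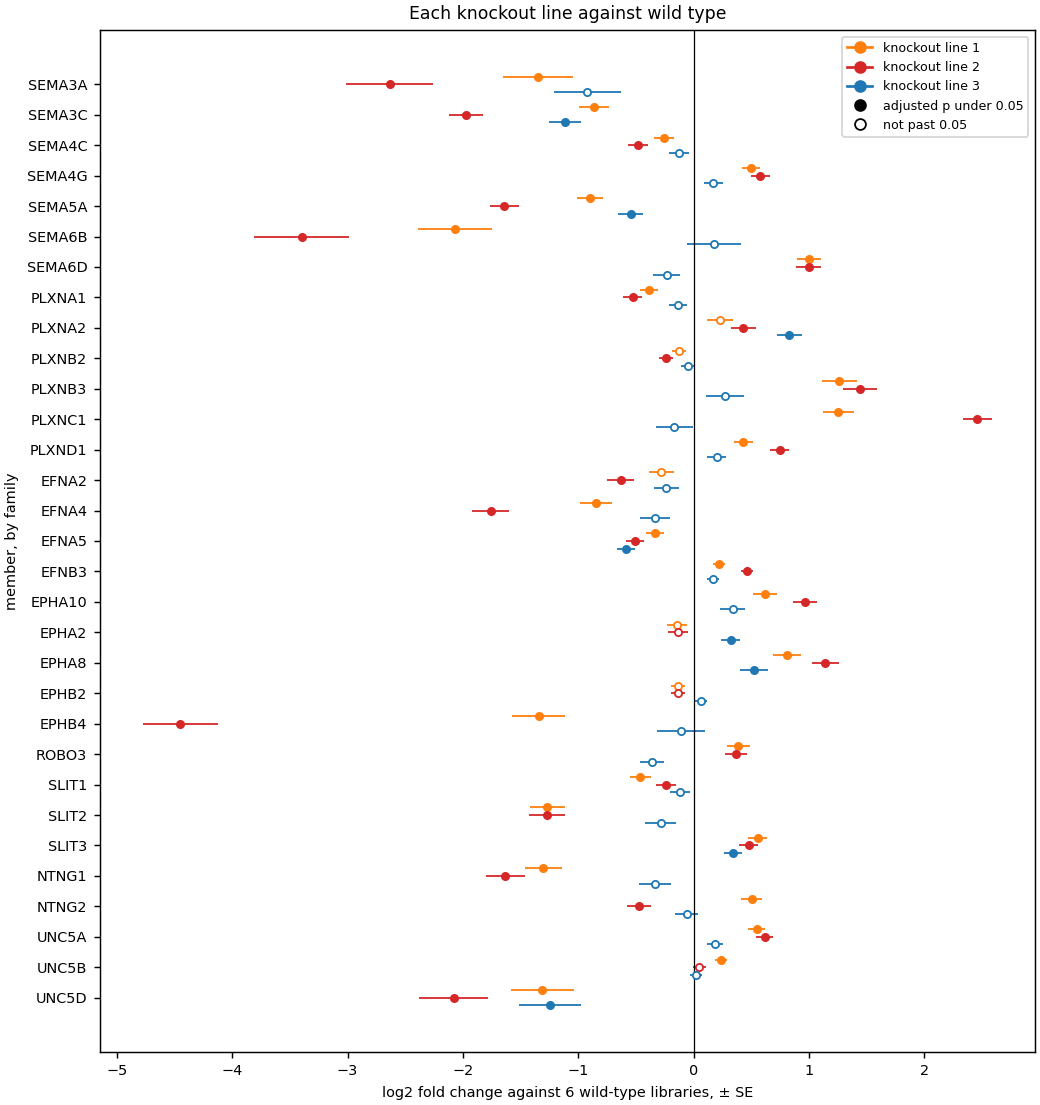
Log2 fold change of each named gene in each knockout line against 6 wild-type libraries (horizontal axis), with bars of 1 SE; filled points have an edgeR adjusted p under 0.05. Line 3 is nearest to 0 for most genes, and EPHB4 reaches -4.45 in line 2.

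Several receptors and ligands known to bind each other were among the genes that differed in lines 1 and 2; these pairs were picked after the values were seen. EPHB4 fell in both lines, and so did EFNB2, which encodes its ligand ephrin-B2. EFNB2 was at 97.5 to 112 CPM in wild type, 62.4 and 29.5 CPM in line 1, 56.7 and 56.5 CPM in line 2 and 106 and 87.6 CPM in line 3, with log2 fold changes of -1.21 and -0.88 in lines 1 and 2 (edgeR adjusted p = 0.00593 and 0.0141). SLIT2 and ROBO2 likewise both fell in lines 1 and 2, as did SLIT1 and ROBO1. In the same lines SLIT3, the Slit with the most mRNA, rose by 0.56 and 0.48 on the log2 scale, and ROBO3 by 0.39 and 0.37. For other pairs the directions were opposite. SEMA7A fell by 0.76 in line 1 and by 1.09 in line 2 on the log2 scale (adjusted p = 0.000716 and 1.65e-05), while PLXNC1, its receptor, rose by 1.25 and 2.46. SEMA5A fell by 0.90 and 1.64, while PLXNB3 rose by 1.26 and 1.44. PLXNA4, a receptor for SEMA3A with neuropilin, fell by 1.24 and 1.80 (adjusted p = 0.0104 and 0.00123), in the same direction as SEMA3A. The neuropilins did not move together. NRP2 changed by -1.87 and -2.94 in lines 1 and 2 (edgeR adjusted p = 0.0559 and 0.0113). NRP1, at a mean of 0.789 CPM in wild type, changed by 0.11 and 1.42 (edgeR adjusted p = 0.81 and 6.83e-05).

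No guidance gene passed for the medium with the filter on low counts. Between heavy and light medium 0 of 59 guidance genes passed with edgeR (0% of all genes tested), 3 had an unadjusted p under 0.05, and DESeq2 called 0. Without the filter edgeR called 4 (0.698% of all genes). The interaction of genotype and medium was likewise passed by 0 genes with edgeR and with DESeq2 (0% of all genes), and 0 had an unadjusted p under 0.05. Within heavy medium alone, 3 lines against 3 wild-type libraries, 0 guidance genes passed with edgeR (0.112% of all genes tested). An unadjusted p under 0.05 was reached by 28 (17.9% of all genes), and DESeq2 called 11 (5.04% of all genes). Within light medium 4 passed with edgeR, SEMA3A, SEMA3C, EFNA5 and UNC5D, all lower, and DESeq2 called 19 (10.8% of all genes). Over all genes 1.44% passed with edgeR in light medium, 0.906% higher and 0.537% lower. Without line 3 the light count was 44 and the heavy count 20, beside 38.4% and 13.6% of all genes.

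The lines differed in how large the heavy differences were beside the light ones. In line 2 the heavy difference from wild type was 0.985 times the light one, as a slope over the 59 genes, and in line 3 it was 0.659. Over all genes tested these slopes were 0.935 and 0.612. The Pearson r between media over the 59 genes was 0.882 in line 1, 0.984 in line 2 and 0.745 in line 3. For all genes tested it was 0.814, 0.915 and 0.563. In line 1 the slope was 0.402, beside 0.497 over all genes tested. All 19 guidance genes past 1 log2 unit in the light library of line 1 differed less in its heavy library, as did 99.5% of all such genes. These genes were picked by their light values, which favours that direction. These slopes describe libraries that share genes and, within a medium, wild-type means.

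**Figure D5:**
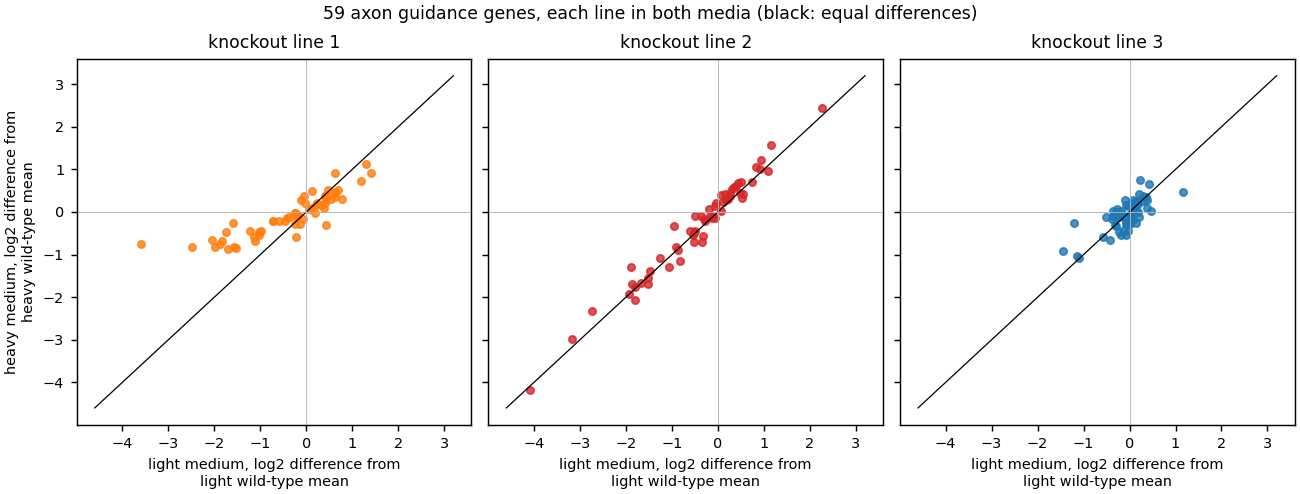
Difference from the wild-type mean of the same medium, log2 of CPM + 0.5, in heavy (vertical axis) against light medium (horizontal axis) for 59 genes in each line; the black line marks equal differences. Line 2 follows it, and line 1 is flatter, with a slope of 0.402.

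Signal transducers of the guidance pathways were called at about the share of all genes. Of 41 tested, 3 were higher and 8 lower over both media, or 26.8% beside 24.8% of all genes, with a median absolute log2 fold change of 0.12, beside 0.158 for all genes. SRGAP1, which binds Robo receptors inside the cell, fell by 0.68 (SE 0.0947, edgeR adjusted p = 0.000739), from 25 to 28.5 CPM in wild type to between 14.2 and 20.3 CPM. VAV2, an exchange factor downstream of Eph receptors, rose by 0.34 (adjusted p = 0.00286). DOCK1 and FARP1, further exchange factors, fell by 0.28 and 0.37 (adjusted p = 0.00524 and 0.0055). Of 12 tested co-receptors and further cues, 2 were higher and 3 lower (15.0% and 9.78% of all genes).

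Markers of cell identity moved mainly in lines 1 and 2, and less in line 3. Of 9 tested noradrenergic markers, 5, 7 and 1 passed with edgeR in lines 1, 2 and 3. Among 10 mesenchymal markers the counts were 9, 9 and 3, and among 5 Schwann and glial markers 4, 4 and 1. The shares of all genes were 28.2%, 43.0% and 5%. Over both media, where 15.0% of all genes were higher and 9.78% lower, 2 of 9 tested noradrenergic markers fell and 0 rose; their summed level was 5410 to 5886 CPM in wild type and 3515 to 5437 CPM in knockout, lowest in line 2. DBH, the enzyme that makes noradrenaline, fell by 0.72 on the log2 scale (edgeR adjusted p = 0.0275). Of 10 tested mesenchymal markers 2 rose, VIM and CD44, and 3 fell; the sum was 483.4 to 507.9 CPM in wild type and 345.3 to 447.8 CPM in knockout, with PRRX1 at 0 and YAP1 near 0. Of 5 tested Schwann and glial markers 3 rose, PMP22, S100B and ERBB3; the sum was 12.12 to 15.53 CPM in wild type and 14.94 to 44.61 CPM in knockout, highest in lines 1 and 2, with SOX10 and GFAP at 0. In line 3 the mesenchymal sum was also below the wild-type range (heavy library 447.8 CPM, light library 421.9 CPM). The noradrenergic sum of line 3 was below its wild-type range in the light library (4981 CPM) but not in the heavy library (5437 CPM). The part of these markers in the results for guidance genes was not tested. In bulk RNA, fewer cells of a type and less RNA per cell cannot be told apart.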

How the data were processed

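Poly(A) RNA of 12 SH-SY5Y libraries was measured. The deposited values are counts, whole and unnormalized, as the authors made them. Per the submitters' processing notes, bcl2fastq 2.19.0, STAR 2.7.0f, featureCounts of Subread 1.6.4 and DESeq2 1.22.1 in R 3.5.1 were used, with GRCh38.p13. The libraries were stranded, per the labels' protocols. Annotation release, strand setting and handling of multi-mapped reads: not given in the sources used here. All 59087 features name a gene, and 27691 were at 0 in every library.

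Counts were tested here with edgeR 4.0.16 in R 4.3.3: TMM factors, filterByExpr over the 4 groups, robust quasi-likelihood F tests and Benjamini-Hochberg adjustment at 0.05 over all 16704 genes tested (fewer within 1 medium). Knockout against wild type had medium as a covariate. Lines were fitted as 4 levels (wild type and 3 lines) with medium, which gave each line against wild type, the difference among lines and heavy against light medium. CPM are counts per 1e6 of the TMM-scaled library, and CPM per kb divide by the exonic length in GENCODE release 29. SE come from the F statistic. Fitted fold changes use a prior count of 0.125, and plots a pseudocount of 0.5 CPM. The fits were run on simulated counts in which every knockout line had the same change. Spread among lines was not simulated there.

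The members and lists were chosen with earlier results of these data known. Per-library values were given by rule: the member of each family with the most mRNA per kb, up to 4 per family past the threshold over both media, those past it in each line in 1 direction, up to 2 per family with the smallest p for the difference among lines, and FMR1. Other named genes, among them ROBO2, NRP2, EFNB2, SEMA7A and PLXNA4, were chosen after their values were seen. Alternatives were RLE factors, 2 other filters, DESeq2 1.42.0, libraries and lines left out, a replicate block, summed lines and smaller fits. Replicate pairs differed by more than sampling noise (chi-square per gene 4.50 to 47.5), so none was counted as 1 library deposited more than once. Deviations from group means showed no pairing of wild-type with knockout libraries of the same number (Pearson r between -0.210 and 0.013), whereas knockout libraries of the same number are of the same line, per the labels.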

Additional observations from a re-analysis of the deposited data

Results flagged for a closer look

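In 33 named genes the 6 wild-type and the 6 knockout libraries were checked for a single library far from the rest, and chance marks about 1 in 20 such groups; 2 of 66 stood out. EFNA5 in knockout had its highest value, 36.6 CPM, in the heavy library of line 1, far above the next. PLXNC1 in wild type had its highest value, 6.63 CPM, in light library 1.

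Of all 59 guidance genes tested, 37 passed the joint edgeR test of a difference among the 3 lines, beside 23.2% of all genes tested. Some of the 33 named genes were chosen for a small p in this same test, and ROBO2 after its values were seen. That choice favours a high count among them. The change against wild type differed among the 3 lines for 24 of the 33 genes, by the joint edgeR test over all genes. The adjusted p was, among plexins, 7.03e-08 for PLXNC1, 0.000687 for PLXNB3, 0.00186 for PLXND1, 0.0129 for PLXNA2 and 0.0159 for PLXNA1. Among semaphorins it was 4.24e-06 for SEMA6D, 1.51e-05 for SEMA6B, 0.000116 for SEMA5A, 0.000965 for SEMA3C, 0.0132 for SEMA4G and 0.0319 for SEMA3A. For netrins and netrin receptors it came to 4.36e-05 for NTNG2, 0.000129 for NTNG1, 0.00355 for UNC5A and 0.0318 for UNC5B. Those of ephrins were 6.82e-05 for EFNA4 and 0.00385 for EFNB3. In Eph receptors the values were 0.000113 for EPHB4, 0.00256 for EPHA2, 0.00417 for EPHA10 and 0.0129 for EPHA8. Finally, Slits and Robos gave 0.000267 for ROBO3, 0.000377 for SLIT2 and 0.00134 for ROBO2. In the report the level in each line stands beside each of these genes that it describes.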

How the results depend on the processing

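Counts here are guidance genes past 0.05, of 59 tested with the main filter. Other filters and sets of libraries can change the number tested. RLE factors, or requiring 1 CPM in 3 libraries, kept each count within 1.5 times its value. Percentages are the share of all genes tested that passed in the same setting. Without a filter, line 3 had 15 (4.42%) and heavy against light 4 (0.698%). Knockout in heavy medium alone then had 9 (2.67%) and in light medium alone 13 (4.66%). DESeq2 gave 11 in heavy (5.04%) and 19 in light medium (10.8%). Fitted with wild type alone, line 3 had 13 (7.52%). For knockout against wild type over both media, counts summed per line gave 3 (1.53%). Leaving out line 1, 2 or 3 gave 18, 14 and 47 (13.9%, 10.2% and 43.6%).

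With libraries left out in turn, the counts ran from 21 to 35 for knockout against wild type over both media (15.4% to 35% of all genes). They ran from 0 to 20 in heavy (0% to 13.6%) and from 0 to 44 in light medium (0.0241% to 38.4%). For line 1 they were 21 to 41 (9.13% to 29.3%), for line 2 34 to 47 (25% to 44.5%) and for line 3 4 to 13 (1.67% to 7.57%). The difference among lines had 24 to 44 (12.9% to 26.1%), and the medium and the interaction stayed at 0. The lowest were line 1 without its light library, line 3 without its heavy library and the difference among lines without the heavy library of line 2. In light medium the count was 0 without any 1 of the 3 wild-type libraries (0.0241% to 0.0302%) and 1 without line 1 (0.149%). In heavy medium it was 7 without line 2 (1.9%) and 20 without line 3 (13.6%). Line 3 had 5 without wild-type light library 2 (3.78%) and 13 without either library of line 1 (7.57% and 7.5%).

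The same replicate numbers do not pair wild-type with knockout libraries. The replicate block gave 29 for knockout against wild type over both media (26.8% of all genes) and 1 in heavy medium (0.584%). It gave 33 for line 1 (21.3%), 39 for line 2 (33.6%) and 3 for line 3 (1.8%). Numbers within knockout mark a line, per the labels, and every line 2 or line 3 library deviated most like the other library of that line. The 2 libraries of line 1 did not (Pearson r 0.133). Its light library deviated most like the heavy library of line 2 (0.452), and its heavy library most like the light library of line 3 (0.172).

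Over both media, NTNG2 (0.047 on the log2 scale) turned to -0.005 with the replicate block and to -0.253 without line 1; with single libraries left out it ran from -0.104 to 0.151, and was -0.076 without the heavy library of line 1. EPHA2 (0.03) turned to -0.14 without line 3; with single libraries left out it ran from -0.072 to 0.078, and was -0.026 without the light library of line 3. Neither passed. The causes were not tested. Genes under 1 CPM rest on few counts per library, and a line on 2 libraries.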
